A study of Homo sapiens with 2 samples.

Results

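The hotspots of the short arm of chromosome 9 (9p) were described in 2 human osteosarcoma cell lines, Saos-2 and U2OS. A hotspot is a stretch of chromatin that DNase I cuts more often than its surroundings, as called by the authors at a false discovery rate of 0.05. Members were the deposited hotspots on chromosome 9 that end before 43 Mb on hg38. They numbered 523 of 51556 hotspots in Saos-2 (1.01%) and 692 of 63388 in U2OS (1.09%). Each line was 1 library of cells with no further treatment named in the labels, and nuclei of both were exposed to DNase I for 3 min at 37 °C. With 1 library per line there was no replicate error and no test between the lines. The 95% intervals below account for counting error alone, and hotspots next to each other are not independent. The last hotspot inside the limit lay at chr9:42743519-42743820 in Saos-2 and at chr9:42852230-42852442 in U2OS. The first outside began at 43135449 and 43116099, respectively.

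The arm carries the cluster of type I interferon genes, which encode secreted antiviral signals that most cells keep silent until infection. Next to the cluster lie MTAP, an enzyme of methionine salvage, and CDKN2A and CDKN2B, which encode inhibitors of the cyclin-dependent kinases CDK4 and CDK6. CDKN2A also encodes ARF, which stabilizes p53, and this neighbourhood is among the stretches most often lost in tumours, osteosarcoma included. An active promoter is usually depleted of nucleosomes and therefore cut by DNase I, and many such promoters are rich in CpG dinucleotides.

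Of 8 osteoblast-lineage markers checked across the genome, RUNX2, SPARC and BGLAP had a promoter hotspot in both lines. ALPL had one in Saos-2 only and COL1A1 in U2OS only, while IBSP, COL1A2 and SP7 had none in either line. That is 3 of 8 in both lines and 3 of 8 in neither. Of all protein-coding genes, 43.5% had one in both lines and 41.6% in neither, so these counts were near the background. Among markers of other tissues, PTPRC, EPCAM, ALB and GFAP had none in either line, and CD3E had one in both. The number of reads per library is unknown. A deeper library yields more hotspots, and this cannot be told apart here from a difference in accessibility.

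To show the sequences behind the results, the 250 bases before the RefSeq transcription start (GRCh38.p14, the primary assembly of hg38) are printed 5′ to 3′ for 10 genes of the arm. Capitals mark letters that match 1 of 9 short motifs on either strand. These are GGGCGG for SP and KLF factors, CCAAT for the box of that name, CCGGAAG for ETS factors, GCATGCG for the core of the NRF1 motif, TGACGT for the cyclic AMP response element (CRE), TGANTCA for AP-1, TGTGGT for RUNX factors, CACGTG for the E-box and TATAAA for the box at some core promoters. A match describes letters and not a bound site.
The first set lies between 21 and 23 Mb, the stretch of KLHL9, MTAP, CDKN2A, CDKN2B and DMRTA1. KLHL9 is on the minus strand (chr9:21335405-21335654), MTAP on the plus strand (chr9:21802386-21802635), and CDKN2A has 2 listed starts on the minus strand (chr9:21995325-21995574 and chr9:21974858-21975107). CDKN2B is on the minus strand (chr9:22009306-22009555) and DMRTA1 on the plus strand (chr9:22446574-22446823).
KLHL9: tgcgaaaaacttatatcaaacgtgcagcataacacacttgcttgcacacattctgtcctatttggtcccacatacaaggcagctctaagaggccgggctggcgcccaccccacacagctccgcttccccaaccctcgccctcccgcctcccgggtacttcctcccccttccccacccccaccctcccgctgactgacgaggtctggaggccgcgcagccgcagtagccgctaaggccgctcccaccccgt
MTAP: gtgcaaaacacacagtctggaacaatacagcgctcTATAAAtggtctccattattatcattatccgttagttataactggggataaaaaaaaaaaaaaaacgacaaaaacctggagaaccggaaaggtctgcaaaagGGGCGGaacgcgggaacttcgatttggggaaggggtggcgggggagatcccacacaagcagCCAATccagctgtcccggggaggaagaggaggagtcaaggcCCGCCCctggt
CDKN2A, start at the higher coordinate: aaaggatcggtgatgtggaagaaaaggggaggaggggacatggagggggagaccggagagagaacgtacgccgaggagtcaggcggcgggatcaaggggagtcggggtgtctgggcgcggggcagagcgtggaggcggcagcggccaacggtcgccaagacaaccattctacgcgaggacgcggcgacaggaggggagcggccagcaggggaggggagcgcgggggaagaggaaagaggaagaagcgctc
CDKN2A, start at the lower coordinate: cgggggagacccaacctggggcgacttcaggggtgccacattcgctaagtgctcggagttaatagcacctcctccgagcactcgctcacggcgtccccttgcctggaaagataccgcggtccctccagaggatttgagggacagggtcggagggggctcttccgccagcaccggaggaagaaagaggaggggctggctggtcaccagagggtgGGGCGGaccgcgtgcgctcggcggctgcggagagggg
CDKN2B: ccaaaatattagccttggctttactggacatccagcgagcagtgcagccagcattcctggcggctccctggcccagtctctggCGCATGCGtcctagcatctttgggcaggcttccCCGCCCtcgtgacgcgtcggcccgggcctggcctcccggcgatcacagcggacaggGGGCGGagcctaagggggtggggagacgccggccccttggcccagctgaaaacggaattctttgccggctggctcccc
DMRTA1: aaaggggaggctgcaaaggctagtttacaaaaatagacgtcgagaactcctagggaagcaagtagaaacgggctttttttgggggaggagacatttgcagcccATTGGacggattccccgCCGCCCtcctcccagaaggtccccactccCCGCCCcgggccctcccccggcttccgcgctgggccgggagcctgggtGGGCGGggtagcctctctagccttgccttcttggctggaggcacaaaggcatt
Saos-2 hotspots covered 124 of these 250 bases at KLHL9, 75 at MTAP, 245 at CDKN2B and 225 at DMRTA1, and 0 at both CDKN2A starts. U2OS hotspots covered 122 bases at MTAP and all 250 at DMRTA1, and 0 at KLHL9, CDKN2A and CDKN2B. The 2 lines therefore differed at KLHL9 and CDKN2B and both lacked a hotspot at CDKN2A. The observed over expected CpG ratio of the printed bases was 0.748 at KLHL9, 0.654 at CDKN2B and 1.08 and 0.736 at the CDKN2A starts. In the CDKN2B sequence the GCATGCG motif and its reverse complement overlap in 1 run of letters.

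For comparison, the second set shows 2 promoters with a hotspot in both lines, 2 with a hotspot in U2OS only and 1 interferon promoter with none. They are CLTA (clathrin light chain A, plus strand, chr9:36190671-36190920), RPS6 (a ribosomal protein, minus strand, chr9:19380237-19380486), ALDH1B1 (a mitochondrial aldehyde dehydrogenase, plus strand, chr9:38392452-38392701), GALT (galactose-1-phosphate uridylyltransferase, plus strand, chr9:34646425-34646674) and IFNB1 (interferon beta, minus strand, chr9:21077943-21078192).
CLTA: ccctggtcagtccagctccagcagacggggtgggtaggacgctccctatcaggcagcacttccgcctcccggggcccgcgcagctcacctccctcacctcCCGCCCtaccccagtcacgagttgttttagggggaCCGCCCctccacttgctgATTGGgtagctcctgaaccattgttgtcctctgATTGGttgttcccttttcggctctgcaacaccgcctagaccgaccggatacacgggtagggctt
RPS6: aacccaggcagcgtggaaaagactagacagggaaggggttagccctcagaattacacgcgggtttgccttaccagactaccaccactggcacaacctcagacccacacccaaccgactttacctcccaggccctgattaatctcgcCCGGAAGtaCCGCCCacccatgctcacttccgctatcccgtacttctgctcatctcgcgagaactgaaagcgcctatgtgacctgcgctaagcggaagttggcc
ALDH1B1: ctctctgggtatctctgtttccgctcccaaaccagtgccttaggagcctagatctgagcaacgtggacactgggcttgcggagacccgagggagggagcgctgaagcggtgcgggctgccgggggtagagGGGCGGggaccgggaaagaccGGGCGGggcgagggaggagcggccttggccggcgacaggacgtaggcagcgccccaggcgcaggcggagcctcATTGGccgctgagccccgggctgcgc
GALT: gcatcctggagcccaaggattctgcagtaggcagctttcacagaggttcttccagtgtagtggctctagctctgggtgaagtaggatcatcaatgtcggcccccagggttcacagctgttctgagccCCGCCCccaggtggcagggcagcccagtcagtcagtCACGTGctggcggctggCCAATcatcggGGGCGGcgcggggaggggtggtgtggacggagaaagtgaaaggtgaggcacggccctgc
IFNB1: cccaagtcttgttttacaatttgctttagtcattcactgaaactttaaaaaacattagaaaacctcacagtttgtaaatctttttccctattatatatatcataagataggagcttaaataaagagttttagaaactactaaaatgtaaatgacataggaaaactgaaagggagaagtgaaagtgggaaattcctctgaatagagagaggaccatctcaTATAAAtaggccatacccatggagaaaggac
The CLTA stretch was covered over all 250 bases in both lines, and the RPS6 stretch over 250 in Saos-2 and 232 in U2OS. The ALDH1B1 and GALT stretches were covered over 250 and 204 bases in U2OS and over 0 in Saos-2. The IFNB1 stretch was covered over 0 bases in either line, holds no CpG and is 32.4% G and C, against 62.4% at CLTA and 70.4% at ALDH1B1.

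The whole arm was first compared with the lists. Hotspots of 9p covered 141 kb in Saos-2 and 193 kb in U2OS, with median widths of 237 and 243.5 bp. Their median significance, the authors' −log10 value, was 4.03 in Saos-2 and 4.44 in U2OS, with highest values of 26.1 and 58.9. U2OS had 1.32-fold as many hotspots on the arm, where the ratio over chromosomes 1 to 22 and X was 1.23. Relative to that ratio, the log2 difference in hotspot number (U2OS minus Saos-2) was 0.10 (95% counting interval -0.06 to 0.27), so the arm as a whole was not distinguishable from the lists. The rest of chromosome 9 was at -0.20 (-0.29 to -0.10) and arm 6p at -0.37 (-0.46 to -0.27), both below the lists. The short arm exceeded the rest of chromosome 9 by 0.30 (0.11 to 0.49), and exceeded arm 6p by 0.47 (0.28 to 0.66). The difference between 9p and these regions is larger than the counting error, but it was measured in 1 library per line.

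Of the 523 Saos-2 hotspots of 9p, 319 shared at least 1 bp with a hotspot of U2OS (61.0%, Wilson interval 56.7 to 65.1%), where 58.1% of the whole list did. Of the 692 U2OS hotspots, 309 (44.7%, 41.0 to 48.4%) overlapped a Saos-2 hotspot, where 46.9% of the whole list did. The arm minus all other hotspots gave 2.93 percentage points in Saos-2 (-1.34 to 7.04) and -2.25 in U2OS (-5.94 to 1.49), and both intervals include 0. Against the rest of chromosome 9, U2OS hotspots of 9p were overlapped less often, by -8.67 points (-12.99 to -4.29). Hotspots found in 1 line numbered 204 in Saos-2 and 383 in U2OS. They were narrower than the overlapped ones, with a median of 197.5 against 290 bp in Saos-2 and 201 against 317 bp in U2OS. Their median significance was 2.98 against 5.07 in Saos-2 and 3.43 against 6.9997 in U2OS.

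Overlap rose with significance on 9p. When each whole list was divided by significance into 4 classes of equal size, the share of Saos-2 hotspots overlapped on 9p was 44.8% in the lowest class and 86.3% in the highest, against 38.8 and 80.5% elsewhere. In U2OS the shares were 24.2 and 72.0% on 9p and 25.3 and 75.2% elsewhere. In every class of both lines the value elsewhere lay within the interval of 9p, as drawn in the plot of overlap by significance. Where 1 hotspot of Saos-2 overlapped exactly 1 of U2OS (287 pairs), their significance had a Spearman correlation of 0.45, which describes sites of 2 libraries that share a genome and its base composition.

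**Figure D1:**
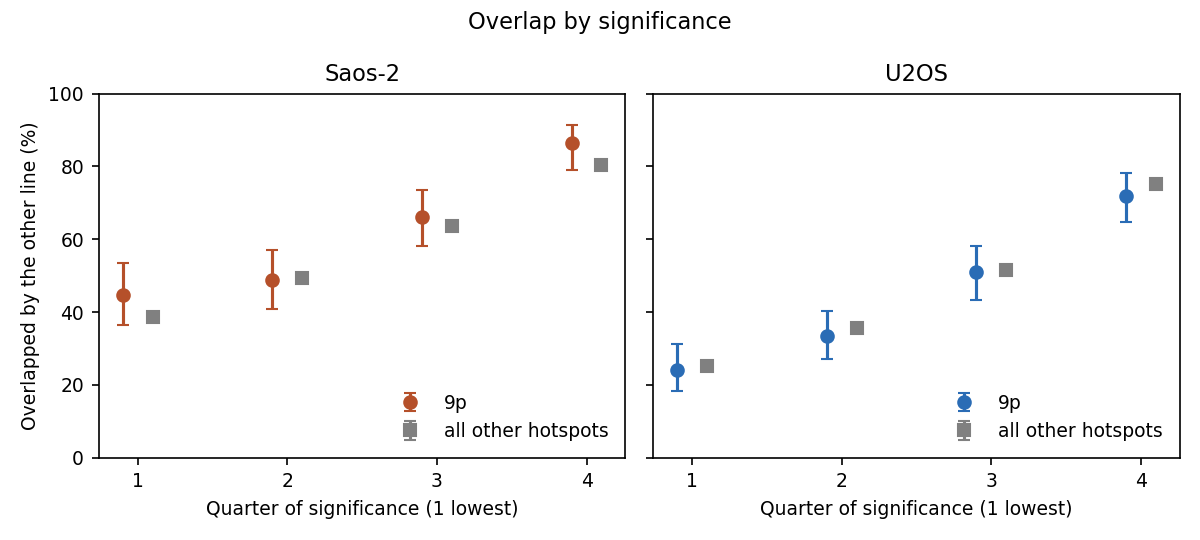
Share of hotspots overlapped by the other line (%, y axis) in each of 4 equal classes of the authors' significance in the whole list (x axis, 1 is the lowest), for hotspots of 9p (circles) and for all other hotspots (squares), with 95% Wilson intervals. On 9p the share climbs from 44.8 to 86.3% in Saos-2 and from 24.2 to 72.0% in U2OS, close to the other hotspots at each step.

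Hotspots were spread unevenly along the arm. Across 43 windows of 1 Mb the number ranged from 0 to 35 in Saos-2 (median 10) and from 1 to 51 in U2OS (median 15). The lines followed the same outline, with a Pearson correlation of 0.86 and a Spearman correlation of 0.88 between their counts over the 43 windows. Windows with more protein-coding genes held more hotspots, with Spearman correlations of 0.72 in both lines. These correlations are descriptions, since neighbouring windows are not independent and both libraries share the genes. U2OS had more hotspots in 31 windows, Saos-2 in 7, and 5 were equal. After scaling for list length, 23 windows leaned to U2OS and 20 to Saos-2.

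The windows with the most U2OS hotspots were 35 to 36 Mb (51), 34 to 35 Mb (39) and 33 to 34 Mb (38). In Saos-2 they were 16 to 17 Mb (35), 33 to 34 Mb (34) and 35 to 36 Mb (31). The 6 windows from 33 to 39 Mb held 153 hotspots in Saos-2 and 216 in U2OS, or 29.3 and 31.2% of the arm's hotspots, and 92 of its 216 protein-coding genes. Genes of general cell function lie here, among them VCP, an ATPase that extracts ubiquitinated proteins, CLTA, and TLN1, which links integrins to actin. The window at 16 to 17 Mb holds the midpoint of 1 protein-coding gene, BNC2, and the end of CCDC171. BNC2 encodes a zinc finger protein and spans 461 kb, with 16 Saos-2 and 9 U2OS hotspots inside it.

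**Figure D2:**
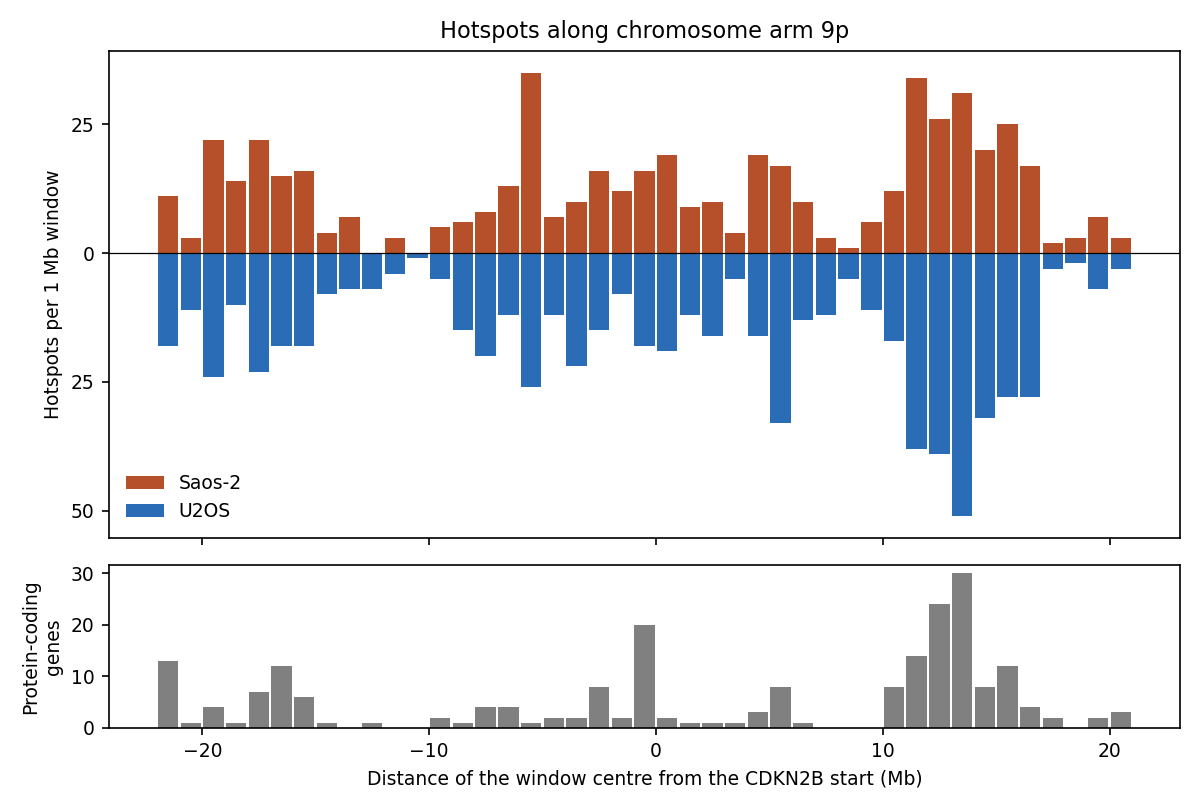
Number of hotspots per 1 Mb window (y axis, Saos-2 upward and U2OS downward) and number of protein-coding genes (lower panel) along 9p, with the window centre as distance from the CDKN2B start in Mb (x axis). Both lines have a block of hotspots at the gene-rich end, up to 51 per window in U2OS, and few hotspots in 2 poor stretches, while the window just left of 0, with 20 genes that include most interferon genes, holds 16 and 18 hotspots.

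Windows were called different when the scaled counts, with 1 added, differed at least 2-fold and the lines together had at least 10 hotspots. Of 35 windows with enough hotspots, 2 (5.71%) were called higher in U2OS, where 12.8% of such windows in the genome were, and 0 were called higher in Saos-2, where 4.89% were. The called windows were 1 to 2 Mb, where Saos-2 had 3 hotspots and U2OS 11 (2.44-fold after scaling), and 29 to 30 Mb, with 3 and 12 (2.64-fold). Both are poor in genes: DMRT2, a regulator of somite and skeletal development, is the gene with its midpoint in the first, and none has its midpoint in the second. The closest values in the other direction were 20 to 21 Mb (12 and 8 hotspots, 0.563-fold), 3 to 4 Mb (14 and 10, 0.596-fold) and 16 to 17 Mb (35 and 26, 0.610-fold). The called windows rest on small counts. With windows shifted by 0.5 Mb, the only one called was 30.5 to 31.5 Mb, where Saos-2 had 3 hotspots and U2OS 9.

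Gaps without a hotspot in either line were then listed. The arm had 6 gaps of at least 500 kb, which made up 9.61% of its span, where such gaps made up 6.25% of the span of chromosomes 1 to 22 and X, centromeres included. The median gap between neighbouring hotspots of the union was 23.8 kb on 9p and 17.1 kb over these chromosomes. The longest gap, 854 kb at chr9:40098290-40951799, and the third, 755 kb at chr9:38709080-39464451, lie next to the centromere. Among hotspots with a significance of at least 2 the longest gap was instead 1369 kb at chr9:11235359-12604169. The end of the arm next to the centromere is rich in duplicated sequence. How the authors treated reads that map to several places is not given in the sources used here. CNTNAP3, a contactin-associated protein, and SPATA31A1 lie in the third gap. From 39 to 43 Mb each line had 15 hotspots, and 11 in each were overlapped.

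The other long gaps lay away from the centromere. The second, 840 kb at chr9:11235359-12075726, and the sixth, 530 kb at chr9:10705080-11235160, hold no protein-coding gene and are separated by 1 U2OS hotspot. The fourth, 577 kb at chr9:9029790-9606652, lies inside PTPRD, a receptor tyrosine phosphatase of synapses. The fifth, 559 kb at chr9:24913117-25472290, holds no protein-coding gene. From 9 to 13 Mb Saos-2 had 8 hotspots and U2OS 17, with 2 overlapped in each line.

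Each line also had gaps of its own. Saos-2 had 13 gaps of at least 500 kb and U2OS had 8. The longest in Saos-2 was 1580 kb at chr9:10495495-12075726, within which U2OS had 4 hotspots, followed by 1138 kb at chr9:8924807-10062837 inside PTPRD, within which U2OS had 7. The third was 1101 kb at chr9:38709080-39809664, with 1 U2OS hotspot. In U2OS the longest was 1369 kb at chr9:11235359-12604169, within which Saos-2 had 3 hotspots. The next were 894 kb at chr9:40098233-40991949 and 763 kb at chr9:38701034-39464451, with 2 and 1 Saos-2 hotspots. PTPRD as a whole held 10 Saos-2 and 15 U2OS hotspots, of which 2 in each line overlapped. Only U2OS had hotspots within 1 kb of its listed starts, the highest with a significance of 8.49 at chr9:8734723-8735131.

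The stretch from 21 to 23 Mb was not a gap in either line. It held 35 hotspots in Saos-2, of which 22 were overlapped, and 37 in U2OS, of which 21 were. This was 6.69 and 5.35% of each line's hotspots on the arm. The longest gap of the union there was 158 kb at chr9:22817551-22976028, far below 500 kb. The longest in 1 line were 292 kb in Saos-2 and 194 kb in U2OS, both in the stretch without protein-coding genes beyond DMRTA1.

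Within this stretch the interferon cluster, from IFNB1 to IFNE (405 kb), held 3 Saos-2 and 5 U2OS hotspots, and 1 in each line was overlapped. The median 1 Mb window of the arm held 10 in Saos-2 and 15 in U2OS, so for this length the counts were near the arm's usual density. All 17 type I interferon genes of the arm, IFNK included, had no hotspot within 1 kb of a start or gene end in either line, where 41.6% of all protein-coding genes had none. No hotspot lay inside any of the 17 genes. The nearest shared hotspot lay 7.46 kb from the IFNB1 start in Saos-2 (chr9:21070156-21070479, significance 8.33) and 7.50 kb from it in U2OS (chr9:21070093-21070440, significance 11.2). The single overlapping pair inside the cluster was at chr9:21111091-21111163 in Saos-2 (1.71) and chr9:21111002-21111274 in U2OS (3.26). KLHL9, an adaptor of a CUL3 ubiquitin ligase that lies among the interferon genes, had a promoter hotspot in Saos-2 (chr9:21335289-21335528, significance 6.30) and none in U2OS. IFNA5, next to KLHL9, lay 10.7 kb from a U2OS hotspot (chr9:21294346-21294609, 8.04) without overlap in Saos-2.

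Between IFNE and MTAP both lines shared a group of hotspots around MIR31HG, the host transcript of the microRNA miR-31. The hotspot inside MIR31HG reached 3.68 in Saos-2 (chr9:21506905-21507122) and 13.6 in U2OS (chr9:21506745-21507193). Beyond the MIR31HG start, at chr9:21591697-21591975 in Saos-2 and chr9:21591607-21592086 in U2OS, the values were 4.49 and 16.9. At chr9:21685019-21685242 and chr9:21684970-21685328 they were 3.82 and 8.62. Between them, at 21576364 in Saos-2 and 21576242 in U2OS, the values were 4.05 and 8.80. U2OS was higher at each of these 4 sites, as it was in 187 of the 287 one-to-one pairs of hotspots on the arm.

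The MTAP promoter had a weak hotspot in both lines, 75 bp wide in Saos-2 (chr9:21802559-21802633, significance 1.46) and 140 bp in U2OS (chr9:21802514-21802653, 2.58). The hotspots inside the gene were all different. Saos-2 had 3, at 21810473, 21832185 and 21836448, with significances of 3.75, 2.27 and 7.80. U2OS had 4, counting the promoter one, of which the highest (chr9:21873871-21874214) reached 13.3 and had no overlap in Saos-2. From chr9:21836744 to 22009263, which takes in most of MTAP, all of CDKN2A and nearly all of CDKN2B, Saos-2 had no hotspot over 173 kb. U2OS had 3 in that interval.

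At CDKN2A neither listed start had a hotspot within 1 kb in either line, and the only hotspot in the gene was 65 bp wide in U2OS (chr9:21986913-21986977) with a significance of 1.51. CDKN2B had a promoter hotspot of 287 bp in Saos-2 (chr9:22009264-22009550, significance 4.74) and none in U2OS, the clearest difference at this pair of genes. A value of 4.74 lies between the median of the Saos-2 list (4.05) and its next class limit (7.63), and the call rests on 1 hotspot in 1 library.

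Beyond CDKN2B most hotspots of the lines were alike in position. In CDKN2B-AS1, a long non-coding RNA antisense to CDKN2B that is also called ANRIL, Saos-2 had 4 hotspots and U2OS 5, with 3 overlapped in each. This gene spans CDKN2B (chr9:21994791-22128142), and its Saos-2 hotspot without overlap is the CDKN2B promoter hotspot given above. The shared sites were at chr9:22052410-22053200 in Saos-2 and chr9:22052515-22053027 in U2OS, with significances of 17.8 and 15.1, at 22084580 and 22084496 with 7.11 and 14.3, and at 22103207 and 22103204 with 6.57 and 15.5. Between the end of CDKN2B-AS1 and DMRTA1 Saos-2 had 10 hotspots and U2OS 8 over 319 kb, with 7 overlapped in each. DMRTA1, a doublesex-related transcription factor, had a promoter hotspot in both lines, with significances of 7.98 and 6.70. Among the Saos-2 hotspots of the stretch that no U2OS hotspot overlapped, the highest was at chr9:22617248-22617572, with a significance of 11.1.

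**Figure D3:**
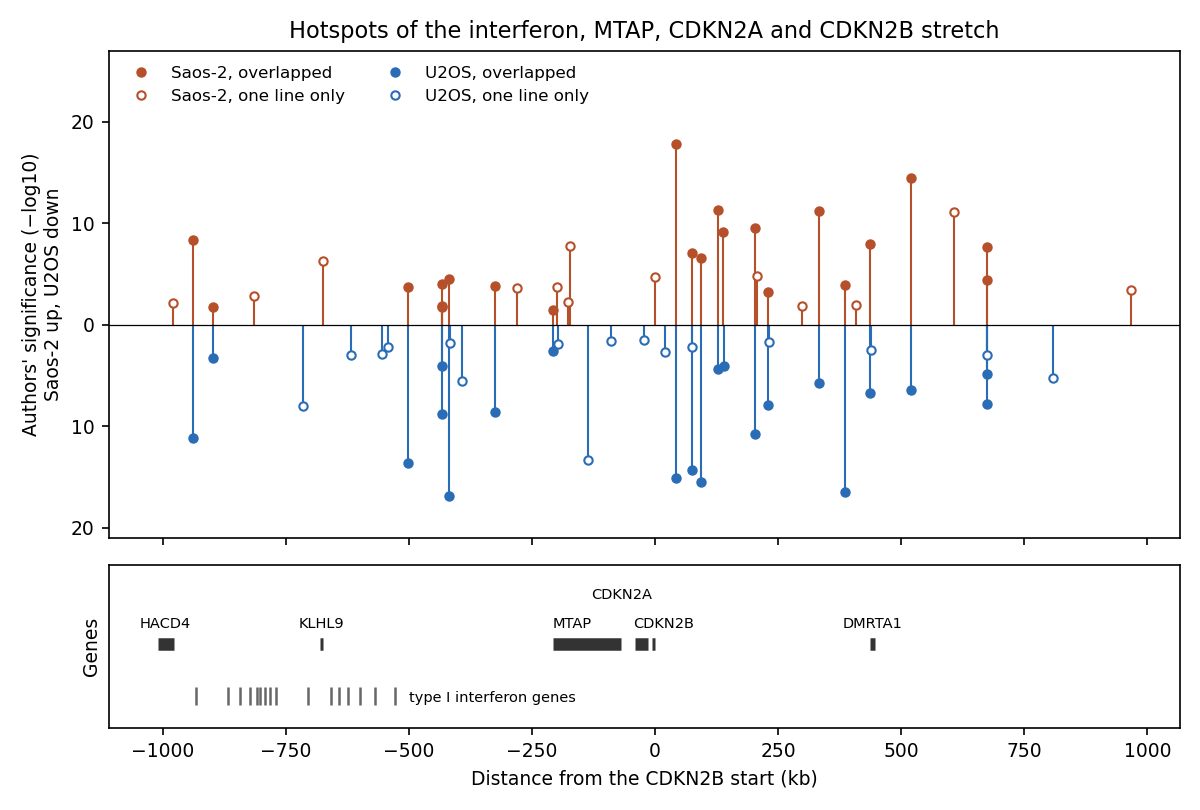
Hotspots from 21 to 23 Mb at their distance from the CDKN2B start in kb (x axis), with the authors' −log10 significance as height (Saos-2 upward, U2OS downward); filled points are overlapped by the other line, open points are not, and the lower panel shows the 16 interferon genes of the stretch (ticks) and the other protein-coding genes (bars). Filled points dominate to the right of CDKN2B, while the hotspots over the interferon genes, MTAP, CDKN2A and the CDKN2B start are mostly open.

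Promoters were compared gene by gene. A promoter counted as open when a hotspot lay within 1 kb of a RefSeq start, or, for the 28 of 216 protein-coding genes of 9p without a listed start, within 1 kb of either gene end. Both lines had one at 94 genes (43.5%), the share found over all 19970 protein-coding genes (43.5%). Only Saos-2 had one at 7 genes (3.24%, interval 1.58 to 6.54%), where 4.81% of all genes did, and only U2OS at 23 (10.6%, 7.20 to 15.5%), where 10.2% did. The remaining 92 genes (42.6%) had none. The arm was therefore near the background in each class.

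The 7 promoters open only in Saos-2 were KLHL9 (significance 6.30), CDKN2B (4.74), ZNG1A (4.42), ERMP1 (2.41), HACD4 (2.14), FBXO10 (1.85) and ANKRD18A (1.32). The hotspots of HACD4, KLHL9 and CDKN2B lie between 21 and 23 Mb, so 3 of the 7 come from this stretch. It holds 22 of the arm's 216 protein-coding genes. With the U2OS list shortened to the length of the Saos-2 list the class held 11 genes. HACD4 is an enzyme of very-long-chain fatty acid elongation, ERMP1 a metallopeptidase of the endoplasmic reticulum and FBXO10 a ubiquitin ligase subunit.

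Of the 23 promoters open only in U2OS, the 10 with the highest significance were ALDH1B1 (11.9), TOMM5 (11.8), POLR1E (11.4), PTPRD (8.49), GALT (6.33), ARHGEF39 (6.25), TRMT10B (6.07), GLIPR2 (5.66), PIGO (5.58) and NPR2 (5.46). TOMM5 is a subunit of the mitochondrial import pore, POLR1E a subunit of RNA polymerase I, PIGO an enzyme of GPI anchor synthesis and NPR2 the receptor for C-type natriuretic peptide, which acts in cartilage growth. All 10 except PTPRD lie between 34 and 39 Mb, within the gene-rich stretch from 33 to 39 Mb. That stretch holds 92 of the arm's 216 protein-coding genes. For TOMM5, POLR1E and ARHGEF39 no start was listed and the hotspot lies at a gene end. IL11RA, the receptor of the bone-active cytokine interleukin 11, was in the same class at 5.19.

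Genes expressed in most tissues mostly had open promoters in both lines. Of 34 such genes 29 were open in both (85.3%, where 43.5% of all genes were), 4 in U2OS only (GALT, PIGO, GBA2, POLR1E), 1 in neither (PLIN2) and 0 in Saos-2 only. CLTA reached 21.5 in Saos-2 and 52.3 in U2OS. BAG1, a co-chaperone, and CHMP5, an ESCRT subunit, share 1 hotspot, with 20.03 and 46.5. RPS6 had the higher value in Saos-2, at 19.3 against 6.17, as did PSIP1 (4.86 and 1.81), VLDLR (2.38 and 2.11) and CDC37L1 (2.57 and 2.52). At every other gene of this list open in both lines, CLTA, BAG1 and CHMP5 included, the U2OS value was the higher. Among the 287 one-to-one pairs of hotspots on the arm, the U2OS value was the higher in 187.

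Transcription and chromatin regulators of the arm numbered 20, with 12 open in both lines (60%), 6 in neither (30%), 2 in U2OS only and 0 in Saos-2 only. Over all protein-coding genes these shares were 43.5, 41.6, 10.2 and 4.81%. UHRF2, a reader of modified DNA, had significances of 19.6 and 17.7 in Saos-2 and U2OS. SMARCA2, an ATPase of the SWI/SNF remodeller, had 10.8 and 8.94. NFIB, a nuclear factor I protein, counts as open in both lines through different starts, the one at 14322387 in Saos-2 (6.10) and those from 14314046 to 14314954 in U2OS (1.78), and none of its starts was open in both. It had 4 Saos-2 and 13 U2OS hotspots inside the gene. GLIS3 had no open promoter, yet contained 19 and 17 hotspots. PAX5, the B-cell regulator, had no open promoter and 5 hotspots in each line. DMRT3 was open in U2OS only, at 2.68.

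Around JAK2 and the PD-1 ligands, 8 of 15 genes were open in both lines, 4 in neither, 2 in U2OS only and 1 in Saos-2 only. These are 53.3, 26.7, 13.3 and 6.67% of the list, beside 43.5, 41.6, 10.2 and 4.81% of all genes. JAK2, the kinase of many cytokine receptors, had significances of 7.26 in Saos-2 and 7.66 in U2OS. CD274, which encodes PD-L1, had 3.69 and 3.09, and PDCD1LG2, which encodes PD-L2 and has no listed start, had 6.95 and 9.75. MLANA, a melanocyte gene, IL33, RLN1 and RLN2 had none. The promoters open in 1 line had weak hotspots, ERMP1 in Saos-2 at 2.41, and INSL6 and INSL4, members of the insulin-like hormone family, in U2OS at 1.67 and 1.77.

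Of 19 protein-coding genes of the matrix, the cytoskeleton and the skeleton, 8 were open in both lines, 3 in U2OS only (BNC2, ARHGEF39, NPR2), 0 in Saos-2 only and 8 in neither. The shares in both and in neither, 42.1% each, were near the 43.5 and 41.6% of all genes, and those of 1 line were 15.8% for U2OS and 0% for Saos-2, beside 10.2 and 4.81%. TLN1 shares its hotspot with CREB3, at 7.36 and 26.2. RECK, a membrane inhibitor of metalloproteinases, had 4.18 and 9.61 at its promoter. A hotspot inside RECK was among the 3 most significant overlapped ones of U2OS on the arm, at 52.1 (chr9:36102044-36102801), where the Saos-2 value was 11.2. ADAMTSL1, a secreted matrix protein, had no hotspot within 1 kb of its only listed start. That start lies well inside the gene, whose ends were not used. The gene held 9 Saos-2 and 22 U2OS hotspots.

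Tissue-restricted genes were mostly without an open promoter, 19 of 24 (79.2%, where 41.6% of all genes were). ELAVL2, a neuronal RNA-binding protein, was open in both lines, at 14.7 in Saos-2 and 18.1 in U2OS, as were TUSC1 (9.76 and 3.55) and AQP3 (4.66 and 6.10). Of the ELAVL2 starts only the one at 23826240 was open, and this hotspot also lies at the start of LOC105375992. The other listed ELAVL2 starts, from 23821156 to 23823132, were open in neither line. The chemokine genes CCL19, CCL21 and CCL27 had no hotspot inside the gene or at the promoter. LINGO2, a neuronal leucine-rich repeat protein, had no hotspot within 1 kb of its only listed start, which lies inside the gene, whose ends were not used. LINGO2 contained 13 and 16 hotspots. In the 9p21 neighbourhood list of 11 protein-coding genes, 5 were open in both lines (MLLT3, FOCAD, MTAP, DMRTA1, ELAVL2), 3 in neither (SLC24A2, CDKN2A, IZUMO3), 3 in Saos-2 only, and U2OS alone had 0. Open in both were 45.5%, in neither 27.3% and in Saos-2 only 27.3%, where the shares of all genes were 43.5, 41.6 and 4.81%, with 10.2% in U2OS only. These shares depend on the choice of genes. The list leaves out the interferon genes, all open in neither, and takes in SLC24A2, MLLT3, FOCAD, ELAVL2 and IZUMO3 from outside 21 to 23 Mb. By midpoint 22 protein-coding genes lie from 21 to 23 Mb, and the same 3 of them were open in Saos-2 only.

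The sequence of promoters was set beside these classes. The listed starts of protein-coding genes on 9p gave 260 promoter stretches of 300 bases. The observed over expected CpG ratio had a median of 0.836 in the 104 stretches open in both lines and 0.317 in the 121 open in neither, with 0.867 in 9 open in Saos-2 only and 0.854 in 26 open in U2OS only. Over 22131 promoters of all chromosomes used, the medians of these classes were, in the same order, 0.851, 0.376, 0.784 and 0.783. With a ratio of at least 0.6 and a GC share of at least 50% as the definition of CpG-rich, 96 of 104 stretches open in both lines were CpG-rich (92.3%, interval 85.6 to 96.1%). Of the stretches open in neither, 34 of 121 were (28.1%, 20.9 to 36.7%), against 33.6% of such promoters in the genome.

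On 9p, 27 genes had a CpG-rich start and no hotspot at any of their listed starts, with 30 such CpG-rich starts. Both CDKN2A starts were among these, with ratios of 1.13 and 0.764. Developmental regulators were represented by DMRT1, DMRT2, PAX5, GLIS3 and FOXD4, and neural genes by SLC1A1, a glutamate transporter, SH3GL2, SLC24A2 and CNTFR. PLIN2, the lipid droplet protein, had a ratio of 0.818 and the MPDZ start one of 0.975. DNA methylation was not measured in this series.

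**Figure D4:**
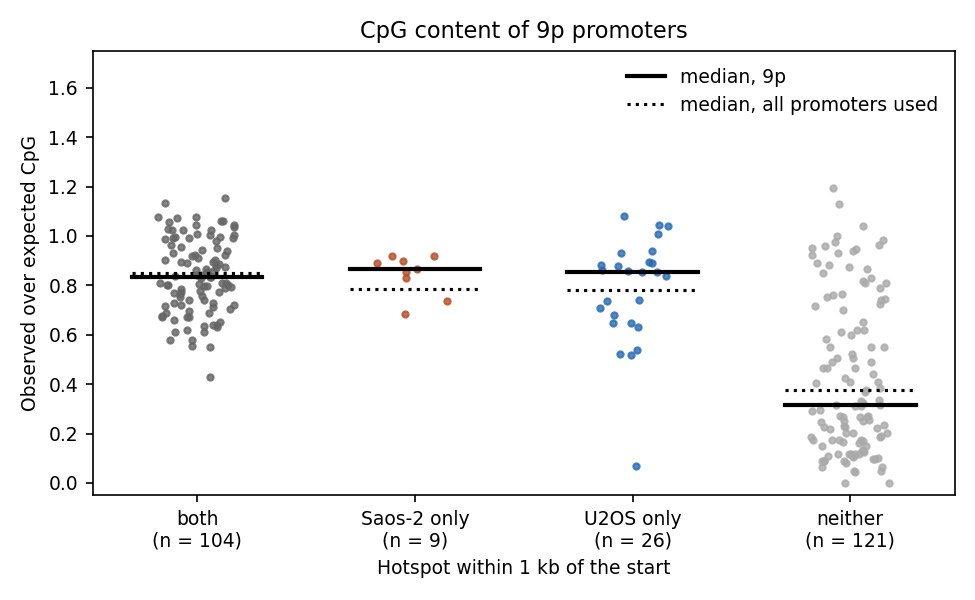
Observed over expected CpG ratio (y axis) of the 260 promoter stretches of 9p by the line or lines with a hotspot within 1 kb of the start (x axis); each point is 1 promoter, solid bars are medians on 9p and dotted bars medians over all promoters used. The 3 classes with a hotspot have medians from 0.836 to 0.867, and the class without has 0.317 with a tail of CpG-rich promoters.

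The SP/KLF motif was in 84.6% of the stretches open in both lines (76.5 to 90.3%), in 30.6% (23.1 to 39.3%) of those open in neither and in 56.3% of all promoters of this length. The ETS motif was in 23.1% (16.0 to 32.0%), 1.65% (0.454 to 5.83%) and 12.8%. For the other 7 motifs the intervals of stretches open in both lines and in neither overlapped. The NRF1 core in 7.69, 1.65 and 4.63%. The CRE letters were in 15.4, 5.79 and 8.92%, and the E-box in 10.6, 3.31 and 8.34%. The CCAAT box was in 32.7, 28.9 and 34.6%. TATA letters were in 6.73% of stretches open in both lines and 13.2% of those open in neither, and in 9.46% of all. AP-1 letters were in 3.85 and 8.26%, with 6.15% of all promoters, and RUNX letters in 12.5 and 7.44%, with 11.3% of all. In the 26 stretches open in U2OS only the SP/KLF motif was in 69.2% and the CCAAT box in 30.8%. Motifs rich in G and C are more frequent in GC-rich sequence, and the median GC share was 66.0% for stretches open in both lines and 52.0% for those open in neither.

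Most hotspots of the arm lay away from promoters. Within 1 kb of a listed start of any gene lay 111 Saos-2 hotspots (21.2%) and 148 U2OS hotspots (21.4%). Inside genes lay 266 (50.9%) and 342 (49.4%), and outside genes 146 (27.9%) and 202 (29.2%). These shares differed from the rest of the lists by less than the counting error in each class. Hotspots at starts were overlapped most often, 86.5% (78.9 to 91.6%) in Saos-2 and 62.2% (54.1 to 69.6%) in U2OS. The U2OS share was below the 69.7% found at starts elsewhere, by -7.56 points (-15.63 to -0.10), an interval that barely excludes 0 among the 16 shares compared.

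The strongest hotspots of the arm were shared. In Saos-2 the 3 highest overlapped ones were at the start of PUM3, a nucleolar RNA-binding protein (chr9:2843940-2844456, significance 26.1, with 7.61 in U2OS), at the starts of KIF24 and NUDT2 (chr9:34329166-34329697, 25.02 and 42.1) and in SMU1, a spliceosome protein (chr9:33076537-33076993, 23.6 and 47.2). In U2OS they were inside LINGO2 (chr9:28212966-28213398, 58.9, with 7.22 in Saos-2), at the CLTA start (52.3 and 21.5) and inside RECK (52.1 and 11.2). The order of these sites differed between lines, with the LINGO2 site far higher in U2OS and the PUM3 start higher in Saos-2.

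Among hotspots without overlap, the 3 highest in Saos-2 were near OR2S2, an olfactory receptor gene (chr9:35996474-35997388, significance 19.3), in the non-coding gene LOC105375999 (chr9:26369083-26369648, 17.9) and at the edge of the longest gap (chr9:40951800-40952477, 17.6). In U2OS they were inside LINGO2 (chr9:29044946-29045373, 29.9) and at 2 sites outside genes (chr9:32644674-32645149 at 29.2 and chr9:32672490-32672906 at 20.3). The nearest listed starts were NDUFB6, at 71.5 kb, and LOC105376016, at 66.1 kb. None of these 6 sites lay within 1 kb of a listed start.

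Runs of hotspots of 1 line, with none of the other between them, mark stretches where the lists diverge. A run can begin or end at a hotspot that the other line overlaps. The longest U2OS run had 13 hotspots (chr9:17824306-18260837), in the first part of ADAMTSL1 and the stretch before it. Its last hotspot is shared with Saos-2. The next run had 12 (chr9:27333275-27574075), over MOB3B, IFNK and C9orf72, and its last hotspot is the C9orf72 promoter, which Saos-2 shares. Runs of 7 lay at chr9:1005221-1337386, with DMRT2, and at chr9:9029581-9943035, inside PTPRD. The longest Saos-2 runs had 5 hotspots, and 4 runs reached this length: at chr9:20319686-20622715, over MLLT3, at chr9:23955786-24071962, at chr9:26297072-26375856 and at chr9:33506593-33617774, over ANKRD18B. All 4 begin or end at a hotspot shared with U2OS, and the runs at 20319686 and 26297072 do so at both ends. Runs of the lines alternate, so each line had 352, and the means of 1.49 hotspots in Saos-2 and 1.97 in U2OS restate the hotspot numbers of the arm.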

How the data were processed

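DNase-seq measures where chromatin is cut by DNase I. It was done on 1 library each of Saos-2 and U2OS, with 8 to 10 PCR cycles per the labels' protocols. Trimmomatic 0.38, BWA 0.7.15 and the build hg38 are named in the submitters' processing notes. The hotspot caller and the handling of duplicates, multiply mapping reads and blacklisted regions are not given in the sources used here. Duplicates and depth can move the number of hotspots, and the depth of each library is unknown.

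The files the authors deposited are hotspot lists without a header. Their −log10 column, called significance here, was read as the authors' −log10 of the false discovery rate, from its lowest value, which corresponds to the limit of 0.05. The deposited score column follows the same values as whole numbers and was not used, and neither was a deposited placeholder column.

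From these lists hotspots were counted, matched by at least 1 bp of overlap, and assigned to 1 Mb windows by midpoint. Gaps were the distances between neighbouring hotspots. Ratios between lines were divided by the ratio of list lengths over chromosomes 1 to 22 and X. Genes came from RefSeq (GRCh38.p14). Promoters reached 1 kb to either side of a listed start. For the 28 genes of 9p (4159 of all 19970) without one, both gene ends were used. Listed starts, and with them CpG, motif and position shares, exclude chromosomes 8 and Y, which were not used for these here. Motifs were searched on both strands from 250 bases before to 50 after the start, and 188 of 216 genes matched. Intervals are Wilson 95% intervals, or were derived from them for ratios and for differences between shares. Those of the differences between log2 ratios of regions are normal approximations from the counts.

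No test was made, since each line has 1 library. The members and gene lists were chosen with earlier results of these data known. Named were members of the gene lists, the longest gaps and runs, the windows with most hotspots or called different, the 3 most significant hotspots of each class, up to 10 promoters of each class of 1 line, and hotspots from 21 to 23 Mb. A result for 1 of the cell type markers is not reported here. Scripts used Python 3.11.15, numpy 2.4.6, pandas 2.3.3, scipy 1.17.1 and matplotlib 3.10.9, and the counting steps were checked on simulated data. Alternatives covered significance limits, list length, merging, overlap, windows, promoter width and the end of the arm.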

Additional observations from a re-analysis of the deposited data

How the results depend on the processing

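Of 89 recomputed values, 75 stayed within the spread allowed and 0 reversed. Requiring 50% of both hotspots to overlap lowered the overlapped share to 45.1% in Saos-2 and 34.1% in U2OS. A significance of at least 2 lengthened the longest gap of the union from 854 to 1369 kb. With the U2OS list shortened to the length of the Saos-2 list, the overlapped shares were 56.2% in Saos-2 and 49.9% in U2OS, 1 window was called higher in Saos-2 (3 to 4 Mb, with 14 and 6 hotspots), and 11 promoters were open in Saos-2 only. The top 50% of each list left 259 and 335 hotspots, with 13 gaps of at least 500 kb and a longest gap of 2339 kb. Windows higher in U2OS numbered 1 with windows shifted by 0.5 Mb and 4 with a minimum of 5 hotspots. Counting only bases before the start, the E-box was in 5.77% of promoters open in both lines. Fewer hotspots lengthen gaps by construction, and otherwise the cause was not tested. Restricting promoters to genes with a listed start, an alternative chosen after seeing the data, gave 83 genes open in both lines, 78 in neither, 20 in U2OS only and 7 in Saos-2 only. No paired analysis was possible because each line has 1 library, and no replicate could be left out.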

Other observations

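Among the 287 pairs of overlapping hotspots of 9p, some ranked far apart in the 2 lists. The pairs named here were chosen after their values were seen. At chr9:35945754-35946012 the significance was 10.6 in Saos-2 and 1.39 in U2OS, and at chr9:3809787-3810107 it was 11.5 and 1.58. In the opposite direction, a site in LURAP1L (chr9:12814577-12814675) had 1.64 in Saos-2 and 19.2 in U2OS. A site in PHF24 (chr9:34666066-34666182) had 1.64 and 11.1. Overlap of position at these sites therefore went with very unequal significance.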
